A study of Homo sapiens with 6 samples.

Results

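The regions described here are stretches of open chromatin that were found in every library of the series and that lie at the end of a single protein-coding gene. Overlapping peaks of the 6 libraries on chromosomes 1 to 22 and X were merged into 28879 regions, of which 3269 held a peak of all 6 libraries. Of these 3269 regions, 1864 lay within 1000 bp of the start or end of exactly 1 RefSeq protein-coding gene (57.0%), 647 lay at 2 or more genes and 758 at none. The 1864 regions mark 1861 genes, 9.32% of the 19974 protein-coding genes. Only 308 regions met the rule with peaks of a −log10 q of at least 5, and 248 where each library's peaks had to cover 50% of the merged region. They were chosen by the presence of peaks in all 6 lists, so their presence and their fold against other regions are a description with no test.

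Open chromatin was mapped by ATAC-seq, where Tn5 transposase cuts accessible DNA and leaves sequencing adapters there, in Huh7, an established hepatocellular carcinoma line. All 3 groups share a knockout of ARID1A, a DNA-binding subunit of the BAF form of the SWI/SNF remodeller, and none is a parental line with its own ARID1A. The group WT carried Flag-tagged wild-type ARID1A from a lentivirus, the group V2084D carried the missense form V2084D in the same way, and the group V2084D shSTUB1 carried V2084D with a knockdown of STUB1, the ligase that puts ubiquitin on clients of HSP70 and HSP90. Each group had 2 libraries. The titles name no control hairpin, and nothing says that the 2 libraries of a group came from separate cultures, so their spread may be technical. With 2 libraries against 2 no exact two-sided permutation test can go below p = 0.33, and no difference between groups was tested.

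The lists held 7401 to 30768 summits, and V2084D replicate 2 was the longest. Depth was estimated from the lowest local background recovered in each list, and library sizes were not read. Relative to WT replicate 2 it ran from 1 to 1.70, and the median summit of a list rested on 8 to 12 reads. Where a list has no peak, the signal did not reach the caller's limit at that depth, and the site need not be closed. Of 17 hepatocyte marker genes, 6 had a peak at a gene end in any list and 1, FOXA3, had one in all 6, in a region shared with another gene. ALB, AFP and HNF4A had none. Of the 21 markers of leukocytes, endothelial cells, fibroblasts and stellate cells, and neurons, 6 had a gene-end peak in any list and COL1A1 alone carried one of the regions. ARID1A had a gene-end peak in 1 list and STUB1 in none, and since peaks do not measure expression they check neither the knockout nor the knockdown.

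A gene's promoter is the stretch around its start where RNA polymerase II and the general factors assemble. Many promoters of genes used in most cell types lie in CpG islands, stretches rich in the CG dinucleotide, which often stay free of nucleosomes just upstream of the start. Such promoters are commonly bound by the SP and KLF, NFY, ETS and NRF1 factors, whereas a TATA box is more typical of genes used in few tissues or under induction.

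The promoters of 7 of these genes are shown because their motifs differ most in frequency between genes with a region and all genes. For each motif the sequence is that of the highest-ranked gene with a match before its start that was not already shown. Each runs 5′ to 3′ on the gene's own strand up to the base before its start, from RefSeq on GRCh38.p14, and capitals mark the motif on either strand. Positions below are negative and count back from the start.
ENSA: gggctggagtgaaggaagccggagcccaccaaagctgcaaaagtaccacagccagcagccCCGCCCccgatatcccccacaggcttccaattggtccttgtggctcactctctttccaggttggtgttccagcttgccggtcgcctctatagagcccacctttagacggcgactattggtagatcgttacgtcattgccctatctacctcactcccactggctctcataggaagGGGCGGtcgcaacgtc
PEF1: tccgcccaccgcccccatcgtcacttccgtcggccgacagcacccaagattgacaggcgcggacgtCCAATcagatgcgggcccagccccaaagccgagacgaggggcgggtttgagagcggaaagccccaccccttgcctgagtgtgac
TSNAX: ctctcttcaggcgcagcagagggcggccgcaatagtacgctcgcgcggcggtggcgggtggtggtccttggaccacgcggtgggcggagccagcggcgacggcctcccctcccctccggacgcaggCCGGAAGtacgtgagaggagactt
ZNF678: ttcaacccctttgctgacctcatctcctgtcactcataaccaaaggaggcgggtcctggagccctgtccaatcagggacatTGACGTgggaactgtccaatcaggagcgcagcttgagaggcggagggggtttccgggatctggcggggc
TCAIM: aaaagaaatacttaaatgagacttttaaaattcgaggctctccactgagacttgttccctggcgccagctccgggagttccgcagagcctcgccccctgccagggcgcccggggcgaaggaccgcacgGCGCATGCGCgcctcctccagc
BRMS1L: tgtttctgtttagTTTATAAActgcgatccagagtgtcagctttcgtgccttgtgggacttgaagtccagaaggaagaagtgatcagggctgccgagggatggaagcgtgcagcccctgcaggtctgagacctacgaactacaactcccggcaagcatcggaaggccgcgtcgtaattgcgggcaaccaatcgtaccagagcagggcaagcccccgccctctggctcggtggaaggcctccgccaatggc
LRPPRC: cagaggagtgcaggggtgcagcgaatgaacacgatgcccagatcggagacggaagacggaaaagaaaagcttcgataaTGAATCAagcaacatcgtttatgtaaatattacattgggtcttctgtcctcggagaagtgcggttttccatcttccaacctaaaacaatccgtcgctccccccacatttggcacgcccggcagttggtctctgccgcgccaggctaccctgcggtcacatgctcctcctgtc
The ENSA stretch (chr1:150629613-150629862, minus strand) carries the SP and KLF box GGGCGG at -190, as its complement, and at -16. The PEF1 stretch (chr1:31644877-31645026, minus strand) carries the NFY box CCAAT at -84. The TSNAX stretch (chr1:231528519-231528668, plus strand) carries the ETS motif CCGGAAG at -24, and the ZNF678 stretch (chr1:227563406-227563555, plus strand) carries TGACGT, part of the cyclic AMP response element, at -69. The TCAIM stretch (chr3:44337979-44338128, plus strand) carries the NRF1 core GCGCATG and its complement at -22 and -19, which overlap to form the full NRF1 motif. The BRMS1L stretch (chr14:35826088-35826337, plus strand) carries TATAAA on both strands at -237 and -235, which lies just outside the merged region. The LRPPRC stretch (chr2:43995990-43996239, minus strand) carries the AP-1 motif TGANTCA at -172. These are matches of letters and were not tested as binding sites.

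The share of promoters with a match differed between genes with a region and all genes. The windows ran 250 bases before to 50 after the start, both strands were searched, and 1487 genes whose region overlapped such a window were set beside all 15812 protein-coding genes of the promoter table. The SP and KLF box was found in 74.6% of the former and 58.5% of all, and the NFY box in 49.5% against 36.3%. The ETS motif was found in 22.7% against 14.2%, TGACGT in 15.5% against 9.66% and the NRF1 core in 11.03% against 5.87%. TATAAA went the other way, with 2.82% against 9.64%, as did the AP-1 motif, with 2.22% against 5.76%.

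The rarer motifs of ZBTB33 and ZNF143 were found in 1.88% against 0.670% and in 0.941% against 0.373%. The full NRF1 motif, which holds the core, was found in 3.50% against 1.76%, and TGACGTCA, which holds TGACGT, in 4.03% against 2.59%. The forkhead motif TGTTTAC was found in 2.62% of both sets. The hepatocyte motifs were rare in both, with the HNF4 motif CAAAGTCCA in 2 of the 1487 promoters and the HNF1 motif in 0, which says only that those letters were not in these windows. Among the 6193 promoters of genes with no gene-end peak in any list, the SP and KLF box was found in 37.5%, the ETS motif in 4.96% and TATAAA in 16.5%. The 1132 promoters of genes that share a region of all 6 lists with another gene had the ETS motif in 28.1% and the YY1 motif in 5.12%, against 22.7% and 2.56% where the region had 1 gene. They had the SP and KLF box in 70.3%, the NFY box in 47.0%, TGACGT in 14.4% and TATAAA in 3.53%. These 4 shares lay nearer to those of the single-gene regions than to those of all promoters.

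Positions of matches could only fall inside the searched windows, 250 bases before to 50 after the start, so closeness to the start is built in. The median match lay 45.5 bp before the start for the ETS motif, 63.5 bp for the NRF1 core, 80 bp for the SP and KLF box and 99.5 bp for the NFY box, whereas the YY1 motif lay 18 bp after it. Fold rank differed little with a match of most motifs. The median mean percentile was 73.4 with the ETS motif and 69.5 without it, 69.9 with and 71.6 without the SP and KLF box, and 61.3 with and 70.5 without the AP-1 motif.

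Base composition went with these shares. The windows of genes with a region had a median GC content of 65.0% (quartiles 60 to 69.7), against 62.7% over all promoters. Their CpG dinucleotides reached a median of 0.862 of the number expected from base content, against 0.763 over all and 0.359 for genes without a gene-end peak. A ratio above 0.6, a usual mark of CpG islands, was found in 94.1% of them, in 65.7% of all promoters and in 33.8% of promoters without a peak. Promoters at regions of all 6 lists shared with another gene were similar, with 89.4% above 0.6, a median ratio of 0.851 and a median GC content of 63.7%. The part of GC content in the motif shares was not tested.

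**Figure D1:**
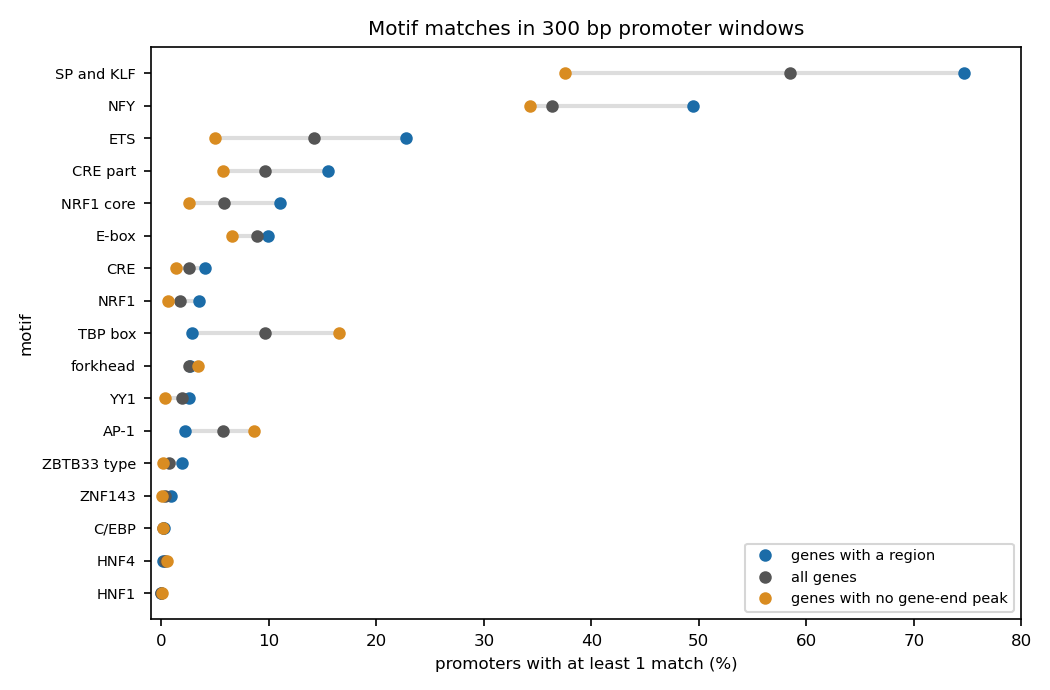
Share of 300 bp promoter windows (x axis, %) with at least 1 match of each motif (y axis), for the 1487 genes with a region, all 15812 genes and the 6193 genes with no gene-end peak, where the row TBP box is TATAAA. The SP and KLF, NFY, ETS, CRE part and NRF1 core motifs were most frequent in genes with a region, and the TBP box and AP-1 motifs least frequent there.

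Nearly all regions with a known strand lay at the start of their gene. Strand was known for 1599 of the 1864, and 1570 of these lay within 1000 bp of the start of the gene's annotated span, 4 of both its ends and 25 of the end only. The share at the start was 98.4%, about the same as the 98.3% of the 1265 single-gene regions with strand that were found in 5 lists. It was 92.8% of the 2135 such regions found in 1 list. In all, 1681 regions overlapped the gene's first or last base (90.2%), 135 lay up to 500 bp away and 48 lay farther away, up to 1000 bp. Just inside the limit of 1000 bp were regions at LOC124900193 (988 bp), SFR1 (973 bp) and KMT2E (937 bp), with mean percentiles of 64.0, 68.6 and 72.2. Just outside it were regions at GYPC (1005 bp), SCAF11 (1007 bp) and FAM177A1 (1012 bp), with 51.4, 63.4 and 71.0.

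The summit, the point of highest signal, sat a little upstream of the start. Distances were taken from the start in the promoter table, which is that of 1 transcript and lay over 1000 bp from the start of the span in 52 of the 1574 regions at a start, among them RB1 and GRK6. Of the 1574, 1540 lay within 1000 bp of that transcript's start too. The median summit over libraries lay 64 bp upstream (quartiles 186 bp upstream to 12 bp downstream). It lay within 200 bp of the start in 64.7% and upstream in 72.6%. The 6 libraries gave medians of 55 to 75 bp upstream, so the position was shared by all groups. Measured from the start of the span, the median lay 46 bp upstream.

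**Figure D2:**
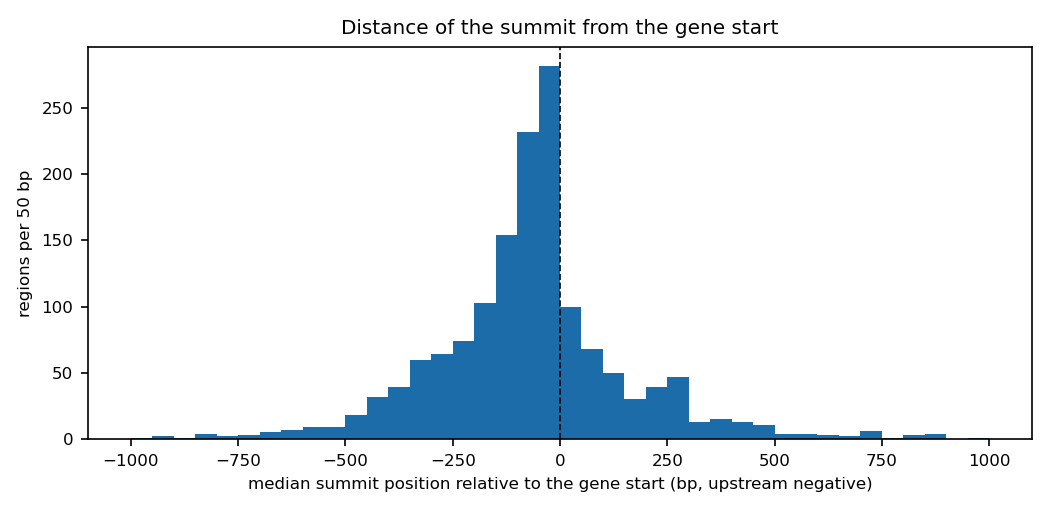
Number of regions per 50 bp (y axis) by the position of their median summit relative to the promoter table's gene start (x axis, bp, upstream negative), for 1515 regions within 1000 bp, with 59 farther away not drawn. The counts peak just upstream of the start and fall sharply past it.

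The 25 regions at a gene's end form a small and mixed set. The highest-ranked is 547 bp past the end of SLC2A1, the glucose transporter GLUT1 (chr1:42924009-42924806), with folds of 8.13 and 10.4 in WT, 7.60 and 9.78 in V2084D and then 9.21 and 9.72 in V2084D shSTUB1. SLC2A1 also has a region at its start, with folds of 6.12 to 7.99, lower than at the end in each library but V2084D replicate 1. PRDM9, a histone methyltransferase of meiosis, and SCAI, a regulator of MRTF-dependent transcription, likewise had a region at each end. HPD, an enzyme of tyrosine breakdown in hepatocytes, had its region at the end and none of these regions at its start. Of the 25, 13 overlapped the span of the gene. A long noncoding RNA gene began or ended within 1000 bp of 5 of them, as at PRSS12 with SNHG8.

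Other RNA genes shared some of the regions. A long noncoding RNA gene began or ended within 1000 bp in 28.6% of the 1864, against 24.3% of regions of all 6 lists at no protein-coding gene and 8.35% of those at 2 or more. A transfer RNA gene lay within 1000 bp of 13, among them regions at tissue-restricted genes such as DCT, an enzyme of melanin synthesis, with TRF-GAA1-5. The DCT region had folds of 8.64 and 5.86 in WT, 7.38 and 9.01 in V2084D and then 7.35 and 9.31 in V2084D shSTUB1. MicroRNA genes lay at 22 regions and small nucleolar RNA genes at 14, the latter at RPL32 and RPS12 among others. The data do not tell which of the neighbouring genes a region belongs to.

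The regions stood in the upper part of each list by fold. Fold is the peak caller's own value for a peak, the reads plus 1 over the local background plus 1, and is used here to rank regions only within a list, by the strongest summit of a region. A percentile of 100 marks the highest fold of the list. The median percentile of the 1864 regions was 71.3 and 64.3 in WT replicates 1 and 2, 62.8 and 85.5 in V2084D replicates 1 and 2, then 80.8 and 76.8 with the hairpin. Their median folds in the same order were 6.36, 6, 5.79, 7.70, 7.02 and 6.67, on medians of 11, 10, 10, 21, 15 and 13 reads. The 3 longest lists gave the 3 highest medians. With lists of equal length, 7234 summits each, 950 regions met the rule and the medians lay between 63.4, in V2084D replicate 2, and 72.5, in WT replicate 1.

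They made up a larger share of the top of each list than of the whole list. Of all regions they were 21.04% in WT replicate 1 and 29.2% in WT replicate 2. The share was 23.3% and 8.39% for the V2084D pair, and the V2084D shSTUB1 pair gave 11.2% and 15.1%. Of the highest 10% of each list they were 44.0%, 47.1%, 38.7%, 31.6%, 33.0% and 38.0% in that order. Only 25 of the 1864 stood in the highest 10% of all 6 lists (1.34%). The share was 1.58% for regions of all 6 lists at no gene and 0.618% for those at 2 or more genes. In all 6 lists 549 stood above the median (29.5%), against 25.2% of regions at no gene and 37.9% at 2 or more. Below the median in all 6 lists stood 7 (0.376%), against 3.69% and 0.464%. Regions of all 6 lists at 2 or more genes had a slightly higher median mean percentile of 71.8, against 69.6, and those at no gene 67.3.

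**Figure D3:**
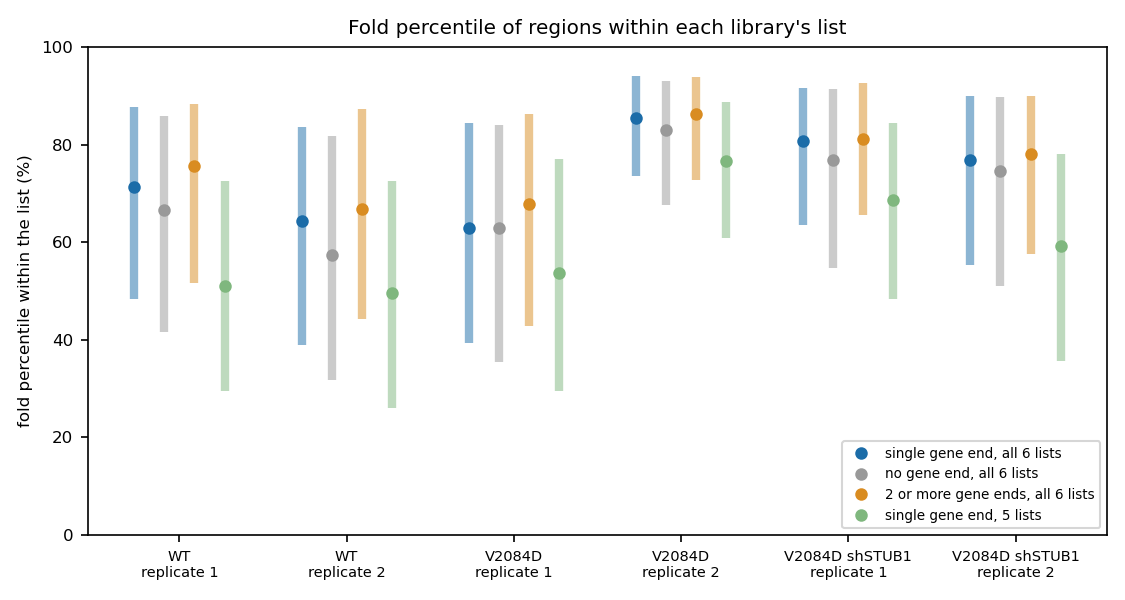
Median (points) and quartiles (bars) of the fold percentile within each library's list (y axis, %) for the 6 libraries (x axis), with regions of all 6 lists at 1 gene, at no gene and at 2 or more genes, and single-gene regions of 5 lists. The single-gene regions of all 6 lists have medians of 62.8 to 85.5, above those of 5 lists in each library.

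Width and rank went up with the number of lists that held a region, and a region merged from more peaks can only be wider. Single-gene regions found in 1 list (2677 regions) had a median width of 235 bp and a median mean percentile of 25.4, those in 5 lists (1491) 809 bp and 59.6, and those in all 6 905 bp and 69.6. Of the 1491 regions one list short, 805 lacked a peak in WT replicate 2, the shortest list, 388 in V2084D replicate 1 and 223 in WT replicate 1, and 1 lacked it in V2084D replicate 2. Widths of the 1864 ran from 266 to 1943 bp. The widest were at ZBTB5, a zinc finger regulator (1943 bp), CITED2, a co-activator that binds EP300 (1763 bp), SEPTIN7 (1753 bp), GSK3B, a kinase of Wnt and insulin signalling (1748 bp), and GOLIM4 (1717 bp). Their mean percentiles of 42.3 to 57.4 were below the median of all the regions.

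The highest-ranked regions lay at genes of varied function. The first was at SPATC1L on chromosome 21 (chr21:46184373-46185183), with folds of 13.0 and 10.9 in WT, 11 and 11.1 in V2084D and then 11.2 and 12.4 in V2084D shSTUB1, on 21 to 34 reads. All 6 values stood above the 99th percentile of their list. The fold of 13.0 in WT replicate 1 has a 95% counting interval of 9.09 to 18.0, so the order of neighbouring regions is not resolved. ENSA, an inhibitor of the phosphatase PP2A at mitosis, came next (chr1:150629073-150629964), with 11.02 and 9.66 in WT, 8.33 and 10.99 in V2084D and then 11.3 and 10.7 in V2084D shSTUB1. Its lowest percentile was 97.1, in V2084D replicate 1. PEF1, a calcium-binding adaptor protein, had 9.13 and 10.4 in WT, 8.28 and 13.8 in V2084D and then 12.4 and 11.5 in V2084D shSTUB1. The V2084D pair spanned the values of both other groups at PEF1.

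The next were ZSCAN25 and ZNF678, zinc finger proteins, TSNAX, the partner of the RNA-binding protein translin, PLK3, a polo-like kinase, and SCYL3. After them came IPO13, a nuclear transport receptor, CTPS1, which makes CTP, GRK6, a kinase of G protein-coupled receptors, COG2, a Golgi tether, and BRMS1L, a part of the SIN3 histone deacetylase complex. The SLC2A1 region past the gene's end was 14th in this order. The remaining 6 of the first 20 were ALG14, of N-glycosylation, FNTB, of protein farnesylation, EXO1, a DNA repair exonuclease, SEC11A, of the signal peptidase, UBE2S, a ubiquitin-conjugating enzyme of the anaphase-promoting complex, and OPA3, a mitochondrial protein. Folds of these 20 ran from 7.14, at OPA3 in V2084D replicate 1, to 13.8, at PEF1 in V2084D replicate 2.

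The lowest-ranked region lay 403 bp from TRIM41, a ubiquitin ligase gene (chr5:181222065-181222878), where transfer RNA genes TRK-CTT2-3 and TRV-CAC1-5 and the microRNA gene MIR4638 also lie. Its folds were 3.25 and 4.33 in WT, 3.47 and 4.32 in V2084D and then 3.58 and 4.82 in V2084D shSTUB1, on 11 to 34 reads. In V2084D replicate 2 its 34 reads were close to the 33 at SPATC1L, over a local background of 7.1 against 2.06 reads. The next lowest were ATF4, the transcription factor of the integrated stress response, MFAP1, SEC14L5 and ZBTB17. ATF4 had 3.53 and 5.21 in WT, 3.96 and 5 in V2084D and then 4.59 and 4.85 in V2084D shSTUB1, and its region lay 288 bp from the gene.

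**Figure D4:**
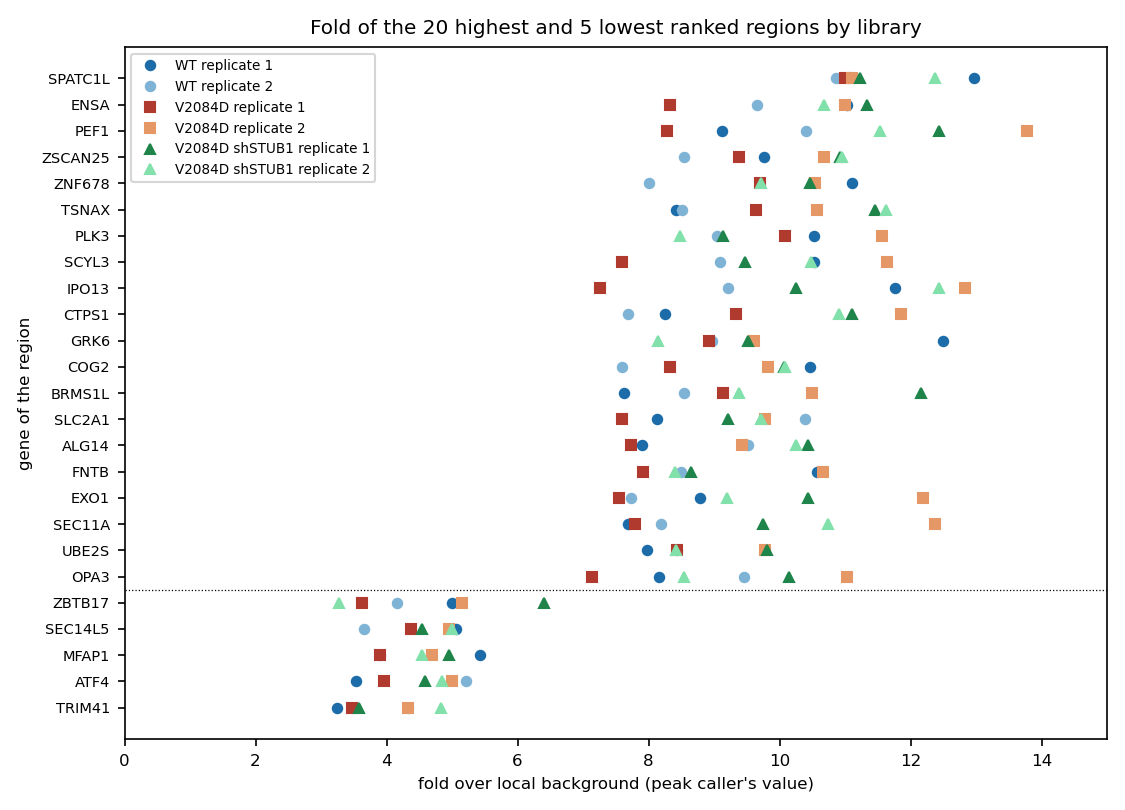
Fold over local background (x axis, linear) of the 20 highest-ranked and 5 lowest-ranked regions (y axis, by gene, split by the dotted line), with 1 point for each of the 6 libraries. SPATC1L is near or above 11 in every library and TRIM41 below 5, and the libraries of a group do not stay together from gene to gene.

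Chromosome 1 was prominent among the highest-ranked regions, with 12 of the first 20 and 32 of the first 100. It held 282 of the 1864 regions (15.1%), a share similar to its 481 of the 3269 regions found in every list. Of its protein-coding genes 13.6% carried a region, against 13.9% on chromosome 14. Over all regions found in every list, the median mean percentile was also higher on chromosome 14, with 75.9 against 73.1 on chromosome 1. Among the 1864 regions the median mean percentile was 75.6 on chromosome 1 and 68.7 on the others, with 74.8 on chromosomes 14 and 21. The difference was largest in V2084D replicate 1, with medians of 72.4 against 61.5, and smallest in WT replicate 1, with 71.6 against 70.9. Reads and local background both moved with it: in V2084D replicate 2 regions on chromosome 1 had a median of 25 reads over a background of 2.07, against 20 and 1.70 elsewhere. Their part in the ranks was not tested.

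Genes in most lists of basic cell functions carried a region more often than genes as a whole, and genes in lists of differentiated tissues less often. The 37 gene lists held 2852 genes, of which 343 carried a region, and 1518 of the 1861 genes were in none of the lists. The 343 fell to 51 and 42 under the stricter q value and coverage. The counts below stand beside the 9.32% of all protein-coding genes, and a list's median mean percentile beside 69.6 for all 1864 regions. Where a region is shared with a neighbouring gene, as at many head-to-head promoters, the gene is not counted. No difference between lists was tested.

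**Figure D5:**
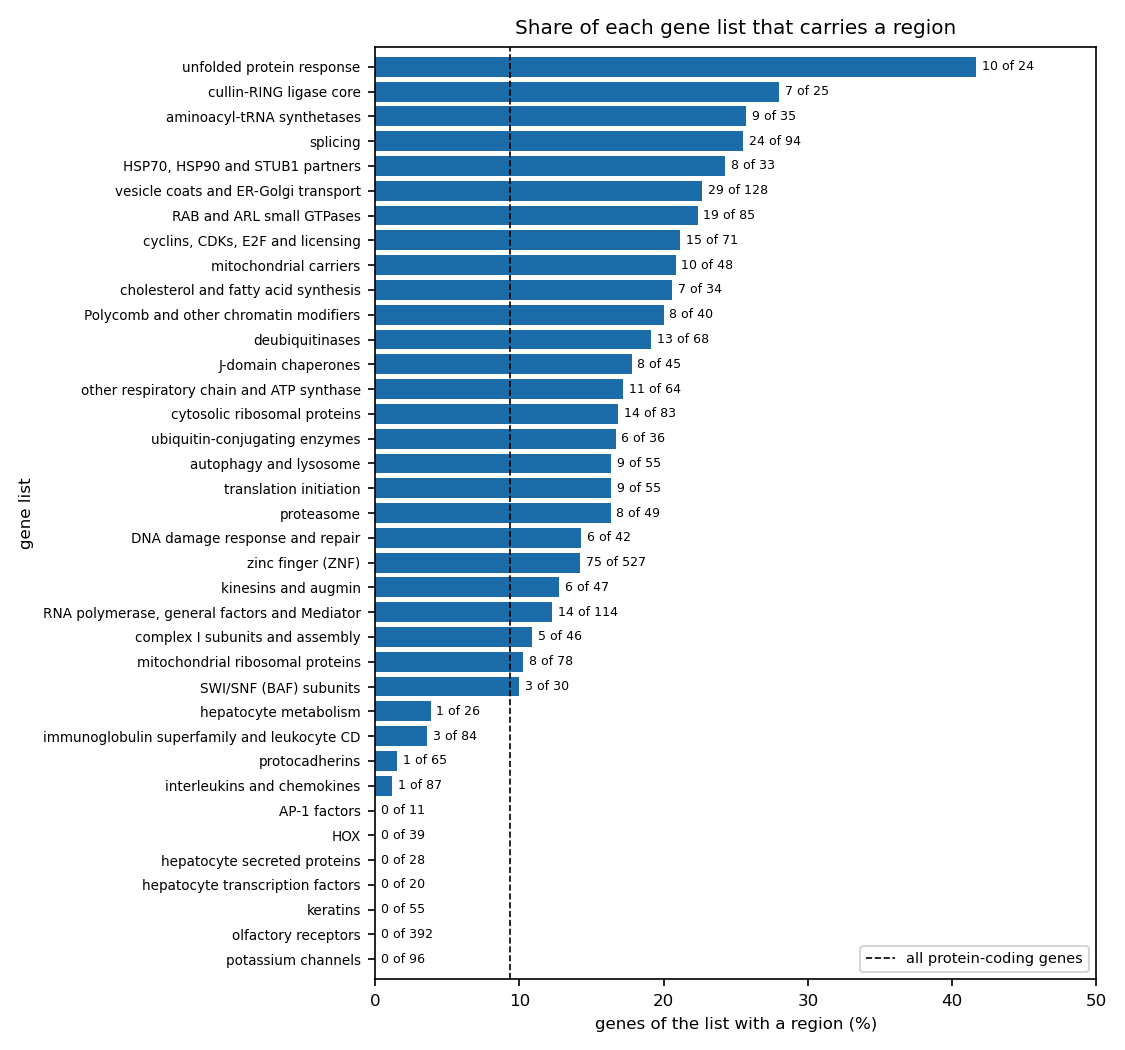
Share of the genes of each of 37 lists (y axis) that carry a region (x axis, %), with counts at the bars and the dashed line at the 9.32% of all protein-coding genes. The unfolded protein response list has the highest share, 10 of 24, and 7 lists, among them hepatocyte transcription factors and secreted proteins, have none.

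Lists of proteostasis genes, the setting in which STUB1 works, had shares from 16.3%, for the proteasome, to 41.7%. These overlap the shares of other lists, such as cytosolic ribosomal proteins (16.9%) and mitochondrial carriers (20.8%). Some genes count in more than 1 list, as HSPA5, DNAJC3 and EIF2AK3 do. Of 24 unfolded protein response genes 10 carried a region (41.7%), at a median mean percentile of 72.8. They were SEL1L and SYVN1, partners in the removal of misfolded proteins from the endoplasmic reticulum (90.6 and 86.0), PDIA4 (82.8), the chaperone HSPA5 (78.2), DNAJC3 (75.1), CHAC1 (70.6), CALR (67.9), the stress kinase EIF2AK3 (59.3), SESN2 (52.2) and ATF4 (23.7). SEL1L had folds of 9.59 and 6.67 in WT, 7.79 and 8.60 in V2084D and then 7.47 and 8.05 in V2084D shSTUB1, and the ranks of the 3 groups overlapped. HSPA5 had 7.33 and 4.89 in WT, 7.22 and 8.65 in V2084D and then 7.14 and 7.56 in V2084D shSTUB1, and the ranks overlapped there too.

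Of 33 genes of HSP70, HSP90 and STUB1 partners 8 carried a region (24.2%), with HSPH1, a nucleotide exchange factor of HSP70, highest at 88.9, then mitochondrial HSPA9 at 86.0 and HSPA13 at 84.8. Of 45 J-domain chaperones 8 did, led by DNAJC27 at 86.2. The core of the cullin-RING ubiquitin ligases had 7 of 25 (28.0%), led by CAND1, which exchanges their substrate receptors, at 87.1, with RNF7 and CUL5 at 80.9 and 80.4. Deubiquitinases had 13 of 68, led by USP1 at 86.2, ubiquitin-conjugating enzymes 6 of 36, led by UBE2S at 96.2, and the proteasome 8 of 49, led by PSMB5 at 87.3. Autophagy and lysosome genes had 9 of 55, led by ATG7 at 89.6.

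Genes of RNA processing and translation were also frequent among them. Of 94 splicing genes 24 carried a region (25.5%), at a median mean percentile of 69.1, with HNRNPA0 at 95.7. HNRNPA0 had folds of 7.84 and 9.32 in WT, 7.52 and 10.98 in V2084D and then 8.88 and 8.55 in V2084D shSTUB1. Aminoacyl-tRNA synthetases, which load transfer RNAs, had 9 of 35 (25.7%), led by WARS2 of mitochondria at 93.2. Translation initiation factors had 9 of 55, led by EIF2B2 at 90.2, and RNA polymerase, general factor and Mediator genes 14 of 114, led by GTF3C5 at 95.6 and MED11 at 94.4. Cytosolic ribosomal proteins had 14 of 83 (16.9%), led by RPSA at 85.0, although 79 of the 83 had a gene-end peak in some list and 7 more lay at shared regions of all 6 lists. Mitochondrial ribosomal proteins had 8 of 78, close to the 9.32% of all genes.

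Membrane traffic genes followed the same pattern. Vesicle coat and ER-Golgi transport genes had 29 of 128 (22.7%), led by COG2, SEC11A and SEC23B, a COPII coat protein, at 97.1, 96.3 and 94.8. This list was matched by symbol and also holds genes of other functions. Among them are SEC11A, of the signal peptidase, and SEC14L2 and SEC14L5, which bind lipids. RAB and ARL small GTPases had 19 of 85 (22.4%), led by RAB11A of recycling endosomes at 91.6, where the transfer RNA gene TRQ-CTG1-4 also lies.

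In metabolism, mitochondrial carriers had 10 of 48, at a median mean percentile of 59.5, one of the lowest of the lists. Respiratory chain and ATP synthase genes outside complex I had 11 of 64 (17.2%). Complex I genes had 5 of 46 (10.9%), close to the 9.32% of all genes, led by NDUFB2 at 90.8. Cholesterol and fatty acid synthesis had 7 of 34, among them HMGCS1, of the mevalonate pathway, CYP51A1, of sterol synthesis, and the transcription factor gene SREBF1. HMGCS1 stood at 87.9 and SREBF1 at 36.0.

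Among genes of the cell cycle, 15 of 71 cyclin, CDK, E2F and licensing genes carried a region, led by the phosphatase CDKN3 at 87.4 and the helicase subunit MCM3 at 86.9. CDK1, CCNB1, CCNB2 and RB1 were among the others. DNA repair had 6 of 42 (14.3%), led by RPA2 at 78.9, and kinesins and augmin 6 of 47 (12.8%), led by KIF18B at 82.9. SWI/SNF subunits had 3 of 30 (10%), close to the 9.32% of all genes. They were SMARCA5, an ISWI ATPase that the list's pattern also took in, at 85.2, SS18 at 59.3 and ACTL6A at 45.1. Polycomb and other chromatin modifiers had 8 of 40, led by DNMT1, the maintenance DNA methyltransferase, at 85.2. Zinc finger genes of the ZNF type had 75 of 527 (14.2%), led by ZNF678 at 98.3 and ZNF837 at 95.6.

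Hepatocyte genes were nearly absent. Of 20 hepatocyte transcription factors and 28 hepatocyte secreted proteins none carried a region, and 8 and 3 of them had a gene-end peak in any list. Of 26 hepatocyte metabolism genes HPD alone did, while OTC lay at a region of all 6 lists shared with another gene. The AP-1 factors had 0 of 11, although 9 of the 11 had a gene-end peak in some list. Olfactory receptors had 0 of 392, potassium channels 0 of 96, keratins 0 of 55 and HOX genes 0 of 39. Shared regions of all 6 lists held 3 of the HOX genes, HOXC4, HOXC5 and HOXC6, and 2 potassium channel genes, KCNAB2 and KCNH6. Leukocyte surface genes had 3 of 84, which were CD72, CD55 and CD82, interleukins and chemokines 1 of 87, which was CXCL2, and protocadherins 1 of 65, which was PCDH9.

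Ranks of the same region differed widely between libraries, also within a group. The 3269 regions of all 6 lists were ranked by fold in each library, with 1 as the highest, so that all libraries rank the same regions. Spearman's rho over the 1864 regions was 0.28 between the WT libraries, 0.31 between the V2084D libraries and 0.37 between the V2084D shSTUB1 libraries. Across groups it ran from 0.19 to 0.44. The highest was between V2084D replicate 2 and V2084D shSTUB1 replicate 1, the 2 libraries with the highest estimated depth. These correlations are across regions of shared libraries and carry no p. The median region moved over 1962 of the 3269 ranks between its highest and lowest library.

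SPATC1L kept within 109 ranks, ENSA within 143, ZSCAN25 within 162.5, PEF1 within 176 and TRIM41 within 233.5. TRMO, a methyltransferase of transfer RNA, moved over 3207, with folds of 3.70 and 6.33 in WT, 7.14 and 9.23 in V2084D and then 12.04 and 5.15 in V2084D shSTUB1. Its 2 V2084D shSTUB1 libraries held ranks 16 and 2848.5. NDUFS8 of complex I, IFT22, RDH14 and OLIG2, a transcription factor of the neural lineage, moved over 3143 to 3166. OLIG2 rested on 6 to 30 reads.

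Against that spread, the regions separated by group about as often as all regions of the 6 lists. Both WT libraries ranked above both V2084D libraries in 350 regions (18.8%), against 19.1% of all 3269, and both V2084D above both WT in 334 (17.9%), against 18.4%. Both V2084D ranked above both V2084D shSTUB1 in 294 (15.8%), against 16.2%, and the reverse held in 323 (17.3%), against 16.6%. Both WT ranked above both V2084D shSTUB1 in 339 (18.2%), against 18.5%, and the reverse held in 347 (18.6%), against 18.3%. All 6 shares of the regions lay within 1 percentage point of the background. The 1864 regions are themselves 57.0% of that background, so part of this closeness is built in. The comparisons share libraries, so their counts are not independent.

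The largest gaps are given as values. CDK13, a kinase of RNA polymerase II, had folds of 8.61 and 8.15 in WT, 4.76 and 4.97 in V2084D and then 6.21 and 5.26 in V2084D shSTUB1. Its WT pair ranked 269 and 290 and its V2084D pair 2739.5 and 3162, on 20 and 21 against 9 and 18 reads. WASHC2A, an endosomal sorting protein with a close paralogue, had 7.74 and 8 in WT against 3.797 and 5.45 in V2084D. KPNB1, the nuclear import receptor importin beta, had 9.91 and 8.67 against 5.32 and 6.25, with 5.67 and 6.62 in V2084D shSTUB1. In these 3 regions both WT libraries ranked above both V2084D libraries.

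In the other direction, the region past the end of PRSS12, beside SNHG8, had 3.95 and 3.62 in WT, 6.76 and 8.74 in V2084D and then 7.14 and 6.19 in V2084D shSTUB1, on 4 to 17 reads. ERI1, an exonuclease of histone messenger RNA, had 5.62 and 4.93 in WT, 8.05 and 10.8 in V2084D and then 8.41 and 8.42 in V2084D shSTUB1. DSN1, of the kinetochore, had 5.68 and 4.17 in WT, 7.89 and 10.8 in V2084D and then 6.47 and 6.48 in V2084D shSTUB1. In these 3 regions both WT libraries had the lowest ranks of the 6.

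Between V2084D and V2084D shSTUB1 the largest gap was at ATP6V1G1, a subunit of the vacuolar proton pump, with 3.68 and 6.19 against 8.82 and 8.15, on 4 and 13 against 14 and 14 reads. COXFA4 had 5 and 6.94 against 9.52 and 9.04, and CHCHD2, a mitochondrial protein, 5.06 and 5.73 against 9.90 and 7.89. At COXFA4 the WT libraries, with 6.76 and 7.41, ranked between the pairs. XRN2, a nuclear exonuclease of transcription termination, went the other way, with 7.32 and 9.92 against 5 and 5.42, while the WT libraries held ranks 112.5 and 3195.5. CNBP, a nucleic acid binding protein, had 7.30 and 9.19 against 4.55 and 5.39.

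Between WT and V2084D shSTUB1 the largest gap was at NUCKS1, a chromatin protein, with 4.35 and 4.65 in WT against 9.40 and 8.80, and 5.62 and 5.21 in V2084D. PRIM1, the DNA primase subunit, had 5.41 and 5 against 9.13 and 9.77. SP3, a transcription factor that binds the SP and KLF box, went the other way, with 7.69 and 7.14 in WT against 5.46 and 4.67. At NUCKS1 7 reads in each WT library stood against 24 and 18. These genes were picked for the size of the gap, so the gaps have no test, and such gaps also arise where ranks vary as widely as they do here within a group.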

How the data were processed

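ATAC-seq of 6 libraries was read from 1 list of peaks per library, grouped by title. The submitters' processing notes name Bowtie2 and MACS2 among other tools, and the build hg38, with no settings. The authors deposited for each peak −log10 p, −log10 q, a score and a fold, which is a ratio to the background around the peak, and peaks were called per library. The deposited −log10 q was at least 1.30 in every list. Other deposited columns (positions and summit offsets) gave the merged regions.

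Peaks on chromosomes 1 to 22 and X that overlapped by 1 bp were merged, and gene ends came from a RefSeq table of GRCh38.p14. Strand came from the promoter table, which holds 15812 of the 19974 protein-coding genes. A region's fold in a list is that of its strongest summit, ranked within the list. Reads were recovered from the deposited fold and −log10 p by assuming a pseudocount of 1 and a Poisson p-value, whole within 0.001 in −log10 p for 99.99% to 100% of summits per library. Intervals cover counting error only. Scripts used Python 3.11.15, pandas 2.3.3 and SciPy 1.17.1 and were tested on simulated peaks.

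Genes were named by fixed rules: the 20 highest and 5 lowest mean percentiles, up to 4 genes per list, the 6 largest rank gaps per pair and direction, the 5 largest and smallest rank ranges, the 5 widest, the highest-ranked per motif and the 3 on each side of the distance limit. Other genes named from the lists were chosen after their values were seen. The regions, lists and rules were chosen with earlier results of these data known. Alternatives were windows of 500 and 2000 bp, −log10 q of at least 5, peaks that cover 50% of the region, 200 bp windows at summits, ranks by −log10 q or among the regions alone, lists of equal length, promoter bases before the start only, and each library left out. Which of 2 near-identical genes a read came from, as at WASHC2A, NCF1 or MZT2A, was not determined. A few genes that met these rules are not reported here.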

Additional observations from a re-analysis of the deposited data

Results flagged for a closer look

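Outside chromosomes 1 to 22 and X, 947 merged regions lay on other sequences, and 40 of them held a peak in all 6 lists. They enter none of the comparisons above, and there are no control samples to set them against.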

How the results depend on the processing

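The results come from counts, medians and shares, and single regions rest on few reads. No paired analysis was possible because the results come from no test. Besides the libraries left out, 81 values under the alternatives stayed within the counting interval of a share, the spread of the 2 libraries of a group or 1.5 times a count, and 27 moved. With −log10 q of at least 5, 308 regions met the rule, 99.3% at a start, at 51 genes of the lists; the shares with V2084D above V2084D shSTUB1, the reverse and V2084D shSTUB1 above WT were 13.0%, 13.96% and 16.6%, and the ETS, TGACGT and NFY shares 25.9%, 19.3% and 54.1%. With peaks that cover 50% of the region, 248 regions remained, 99.1% at a start, at 42 genes of the lists; WT above V2084D, the reverse and V2084D shSTUB1 above WT came to 21.4%, 15.3% and 15.7%, and ETS, NFY and TATAAA to 25.7%, 53.3% and 4.29%. With 200 bp windows at summits 1362 regions met the rule, 226 genes of the lists carried a region and TATAAA was in 1.56%. The 500 bp window put 99.005% at a start. Bases before the start alone gave ETS 18.4% and the SP and KLF box 72.2%. With lists of equal length the median percentiles were 72.3 in WT replicate 2, 63.4 in V2084D replicate 2, and 66.5 and 68.6 in V2084D shSTUB1.

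Leaving out a library, 1837 to 2669 regions had a peak in each of the other 5, the highest without WT replicate 2, and 338 to 481 genes of the lists carried one. Between 98.2% and 98.6% lay at a start. Median percentiles ranged from 65.0 to 71.6 and 62.3 to 65.0 in WT, 60.5 to 63.1 and 83.4 to 85.8 in V2084D, and 78.2 to 81.4 and 72.0 to 77.1 in V2084D shSTUB1. With 1 library against 2, which separates more often by construction, WT ranked above V2084D in 18.7% to 34.7% and below in 17.9% to 34.7%. V2084D ranked above V2084D shSTUB1 in 15.8% to 33.1% and below in 16.6% to 35.2%, and WT above V2084D shSTUB1 in 17.7% to 34.9% and below in 18.0% to 35.0%. Motif shares ran from 22.6% to 23.2% for ETS, 14.8% to 15.7% for TGACGT, 45.8% to 49.8% for NFY, 74.5% to 74.98% for the SP and KLF box and 2.87% to 3.79% for TATAAA.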
